A study of Mus musculus with 11 samples.

Results

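The genes described here are 10 mediators and restraints of regulated necrotic cell death, taken by symbol from the 28692 genes of the count matrices: Nlrp3, Pycard, Casp1, Casp4 and Gsdmd of pyroptosis, Ripk3 and Mlkl of necroptosis, and Acsl4, Gpx4 and Slc7a11 of ferroptosis. All 10 symbols were found. Their RNA was followed across tubular, stromal, endothelial and immune cells of mouse kidneys by droplet single-cell RNA sequencing, in 11 libraries. The 5 control libraries (Ctrl, N1, N2, AN1 and AN2) came from naive kidneys, the 3 UIR libraries (UIR, UIR1 and UIR2) from kidneys with unilateral ischemia-reperfusion (the left renal pedicle clamped for 30 min at 37 °C), and the 3 UUO libraries (UUO, UUO1 and UUO2) from kidneys with unilateral ureteral obstruction (the left ureter tied off irreversibly). All animals were male C57Bl/6 mice with no engineered allele. Injury was made at an age of 10 weeks and injured kidneys were taken on day 28. The naive mice are given as of the same age, without saying whether at injury or at harvest. The cells were freed with a cold active protease. The controls had no sham surgery and were prepared as separate batches, whereas the labels give no batch for UIR or UUO, so batch and injury cannot be told apart.

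The libraries held 49503312 to 117043590 UMIs, and 1859 to 7437 cells per library were kept, 40376 in all. Between 1.282% and 8.834% of a library's cells were left unnamed, and any pair of libraries shared at most 19 cell barcodes. Barcodes with over 30% mitochondrial UMIs were left out. Among controls these were 3439 of 6090 called barcodes in Ctrl and up to 7472 of 9612 in AN2. In UIR libraries they were 1281 of 5610 (UIR) to 4433 of 12495 (UIR1), and in UUO libraries 146 of 4804 (UUO) to 339 of 4490 (UUO2). Far more of the control barcodes were thus left out, and what this does to class shares and levels was not tested. Immune cells made up 4.579% to 7.8% of control cells. They were 32.72% to 48.65% of UIR cells and 52.97% to 61.66% of UUO cells. Cells were named by markers as proximal tubule (PT), loop of Henle (LOH), distal tubule (DT), collecting duct principal (CD-P) and intercalated (CD-I) cells, failed-repair tubular epithelial cells (frTEC), endothelium (Endo), stroma (3 fibroblast types joined), macrophages (Macro), monocytes (Mono), neutrophils (Neutro), T and NK cells (T/NK), dendritic cells (cDC1, cDC2) and B cells. Each of these classes but Stroma, which was not checked, held RNA of all its own markers in every group, apart from 1 of 5 missing in control cDC1. In the injured tubule these markers were lower. Their summed level was 27580 CPM in control LOH, 13020 in UIR and 8056 in UUO. In CD-P it was 23040, 9183 and 3498 CPM, and in DT 9193, 3858 and 1850 CPM, in the same order. CPM here are UMIs of a gene scaled to 1000000 UMIs of all cells of 1 class in 1 library, and such a sum, called a pool, was tested where it held at least 20 cells.

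In pyroptosis, a sensor such as Nlrp3 gathers the adaptor Pycard (ASC) and the protease Casp1 into an inflammasome, whereas Casp4 (mouse caspase-11) recognises lipopolysaccharide in the cytosol without it. Both proteases cut Gsdmd, whose released fragment forms pores in the plasma membrane. Necroptosis runs through the kinase Ripk3 to the membrane-breaking Mlkl. Ferroptosis is death by peroxidation of phospholipids that Acsl4 loads with polyunsaturated fatty acids, and it is held back by Gpx4, the enzyme that reduces those peroxides with glutathione, for which Slc7a11 imports cystine. These are switched mainly at the protein level, so RNA reports on the supply of the parts and not on death.

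Casp1 and Casp4 are neighbours on mouse chromosome 9 and read in the same direction. Casp1 lay at chr9:5298517-5307265 and Casp4 at chr9:5308828-5336783 (GRCm38, forward strand), with 1562 bases between them. Slc7a11 lay at chr3:49892526-50443614 on the reverse strand. The promoters of Casp4 and Slc7a11 are shown because the LOH and the neutrophil results turn on these genes. The 250 bases before each RefSeq start (GRCm38.p6, Casp4 chr9:5308599-5308848 forward, Slc7a11 chr3:50443614-50443863 reverse) are printed 5′ to 3′ with motif matches in capitals:
Casp4: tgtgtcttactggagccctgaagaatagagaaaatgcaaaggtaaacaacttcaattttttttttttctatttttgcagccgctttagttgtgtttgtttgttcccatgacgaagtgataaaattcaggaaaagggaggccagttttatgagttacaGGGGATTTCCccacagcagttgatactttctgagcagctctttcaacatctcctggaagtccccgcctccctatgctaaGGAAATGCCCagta
Slc7a11: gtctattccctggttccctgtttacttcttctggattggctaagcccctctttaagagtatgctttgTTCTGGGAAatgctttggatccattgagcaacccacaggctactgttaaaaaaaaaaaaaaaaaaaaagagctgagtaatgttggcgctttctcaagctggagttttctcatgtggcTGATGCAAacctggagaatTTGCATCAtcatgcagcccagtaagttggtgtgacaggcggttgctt
In the Casp4 promoter the capitals mark matches to the kappa B motif (GGG, then 2 bases of any kind, then TTTCC, either strand), at 93 to 84 and 14 to 5 bases before the start. In the Slc7a11 promoter they mark the amino acid response element (TGATGCAA, either strand) at 66 to 59 and 47 to 40 bases, and a STAT motif (TTCNNNGAA) at 183 to 175 bases. Of 32851 RefSeq promoters of the same length, 1.412% held the kappa B motif, 0.7915% the amino acid response element and 7.02% the STAT motif. An interferon response element (GAAA on both sides of 2 bases of any kind, in 2.977% of promoters) and an antioxidant response element (TGACNNNGC, in 10.16%) were also searched and matched no member. Promoters were on hand for 9 of the 10 members, and the motifs were picked after the sequences had been seen, so a match is a description.

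In control kidneys the members fell into distinct distributions. RNA of Gsdmd, Casp1, Casp4, Ripk3 and Mlkl was scarce in the tubule beside immune and endothelial cells, whereas Acsl4 and Gpx4 had a higher mean over the tubular classes than in endothelial or immune cells, and Pycard was found in both tubule and immune cells. Control podocytes also held Gsdmd, at 14.2 to 46.8 CPM, and control Stroma Casp4, at 44.4 to 75.8 CPM, and Ripk3, at 9.47 to 16.6 CPM. To compare compartments, 5 tubular classes (PT, LOH, DT, CD-P, CD-I), Endo and 2 immune classes (Macro, T/NK) were fitted within libraries, and edgeR called 9 of the 10 members in at least 1 contrast of control levels. The contrasts of Nlrp3, at 0.00323 CPM in the tubule and 11.5 in immune cells, could not be estimated, with 2 to 5 classes without its UMIs. Called tubular contrasts also held up to 3 such classes (Gsdmd, Casp1 and Mlkl), and no log2 difference is given for them. Over all genes 46.5% were called between tubule and immune cells, 61.2% between tubule and endothelium and 36.8% between endothelium and immune cells, so being called is common.

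Gsdmd, the pore former, averaged 0.0643 CPM in the control tubule, 33.6 in Endo and 25.9 in immune cells, and not a UMI was found in control LOH, DT or CD-P (adjusted p = 6.494e-14 for tubule against immune, edgeR). Casp1 averaged 0.0585, 17.4 and 48.1 CPM in the same order, and was lower in endothelium than in immune cells by 1.68 ± 0.29 (SE) on the log2 scale. Casp4 averaged 0.615, 20.9 and 21.6 CPM, with no call between endothelium and immune cells (log2 difference -0.14 ± 0.40). Pycard stood apart from its partners, at 101 CPM in the tubule, 24.9 in Endo and 199 in immune cells. Its tubular level was thus below the immune one (log2 -1.37 ± 0.13) and above the endothelial one (log2 1.77 ± 0.17).

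Ripk3 averaged 0.328 CPM in the control tubule, 5.8 in Endo and 17.9 in immune cells. Mlkl, its substrate, had another order: 0.254 CPM in the tubule, 17.4 in Endo and 3.43 in immune cells, with endothelium above immune cells by 2.20 ± 0.65 on the log2 scale (adjusted p = 0.004875, edgeR). The kinase and its substrate were therefore highest in different compartments. Acsl4 averaged 74.6 CPM in the tubule against 30.8 in Endo and 30.2 in immune cells (log2 1.06 ± 0.25 over immune). Gpx4 averaged 809, 586 and 422 CPM (log2 0.88 ± 0.10 for tubule over immune, adjusted p = 2.98e-11). These tubular means cover unlike classes. Control PT held only 13.5 to 18.4 CPM of Acsl4 and 5.17 to 8.72 CPM of Pycard, below every Endo library (from 22.4 and 18.3 CPM). Gpx4 in control CD-P, at 363 to 568 CPM, lay below Endo (572 to 615 CPM), and control Stroma (799 to 857 CPM) and podocytes (1209 to 1488 CPM) were near or above its tubular mean.

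**Figure D1:**
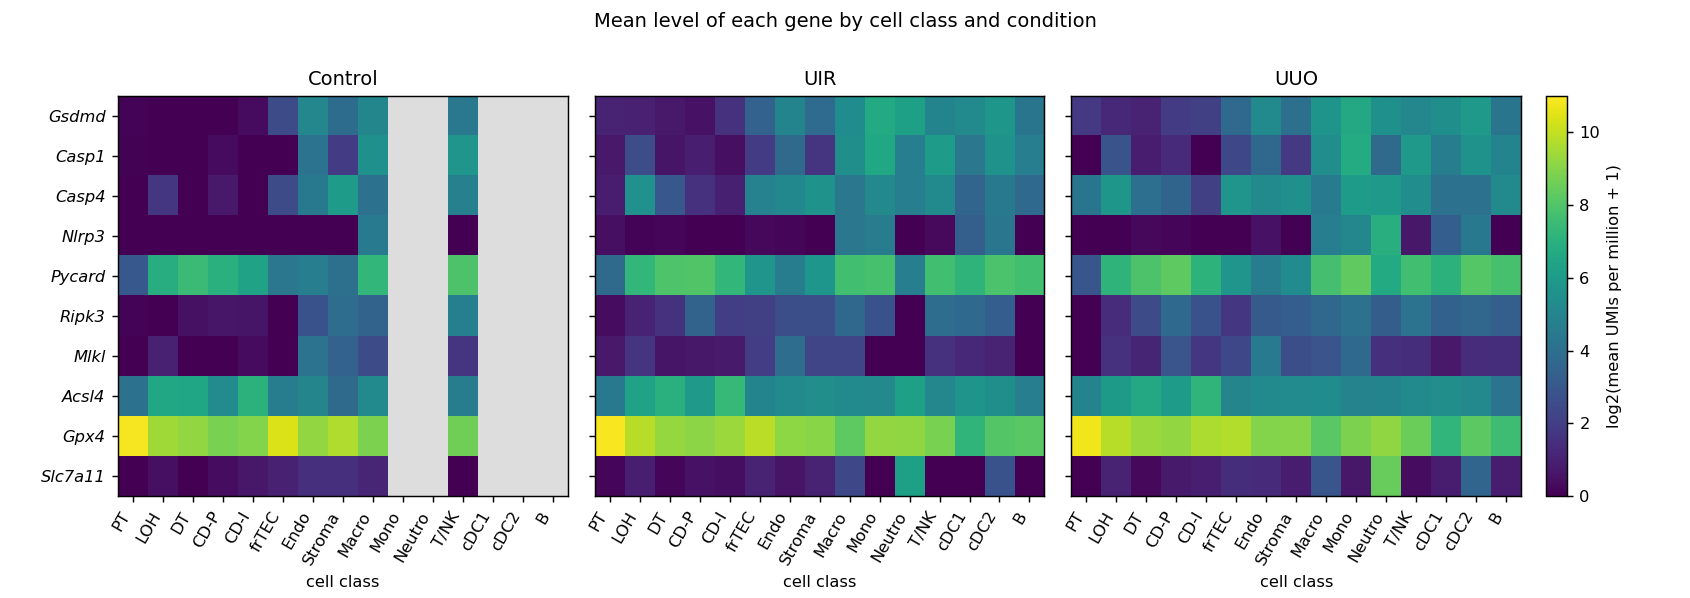
Mean level of the 10 members (rows) in each class and group (columns), as log2(CPM + 1) in color over pools of at least 20 cells, with grey where a group had no such pool. Nlrp3 is visible only in myeloid classes, Gpx4 is high throughout and highest in PT, and Casp4 in LOH has a control mean of 2.38 CPM, a UIR mean of 46.5 CPM and a UUO mean of 54.7 CPM.

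The question of the injury models was which of these genes changed in which class by day 28. Of 100 pairs of a member and a class with control pools (10 classes), 56 had enough UMIs to be tested. In UIR 10 pairs were higher and 2 lower than in controls, and in UUO 13 were higher and 3 lower (edgeR, adjusted p below 0.05 over all genes of the class). Over all genes and the same classes 7.95% were called higher and 6.7% lower in UIR, and 10.2% higher and 9.45% lower in UUO. The calls fell on 6 members in UIR and 8 in UUO, and Nlrp3 and Mlkl had none in either. A pair with few UMIs passed the filter only through the group where it was high, so these counts describe the tested pairs and not all members. With the library number as a block, UIR had 12 higher and 4 lower pairs and UUO 14 higher and 5 lower pairs. At a mitochondrial limit of 15% in place of 30%, 1 pair was called higher in UIR and 3 in UUO and 0 lower in either, with LOH, CD-P, CD-I, frTEC, Stroma and T/NK left without 2 control libraries of 20 cells, and without a low-count filter 18 and 23 were higher. The 2 models share their control libraries.

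**Figure D2:**
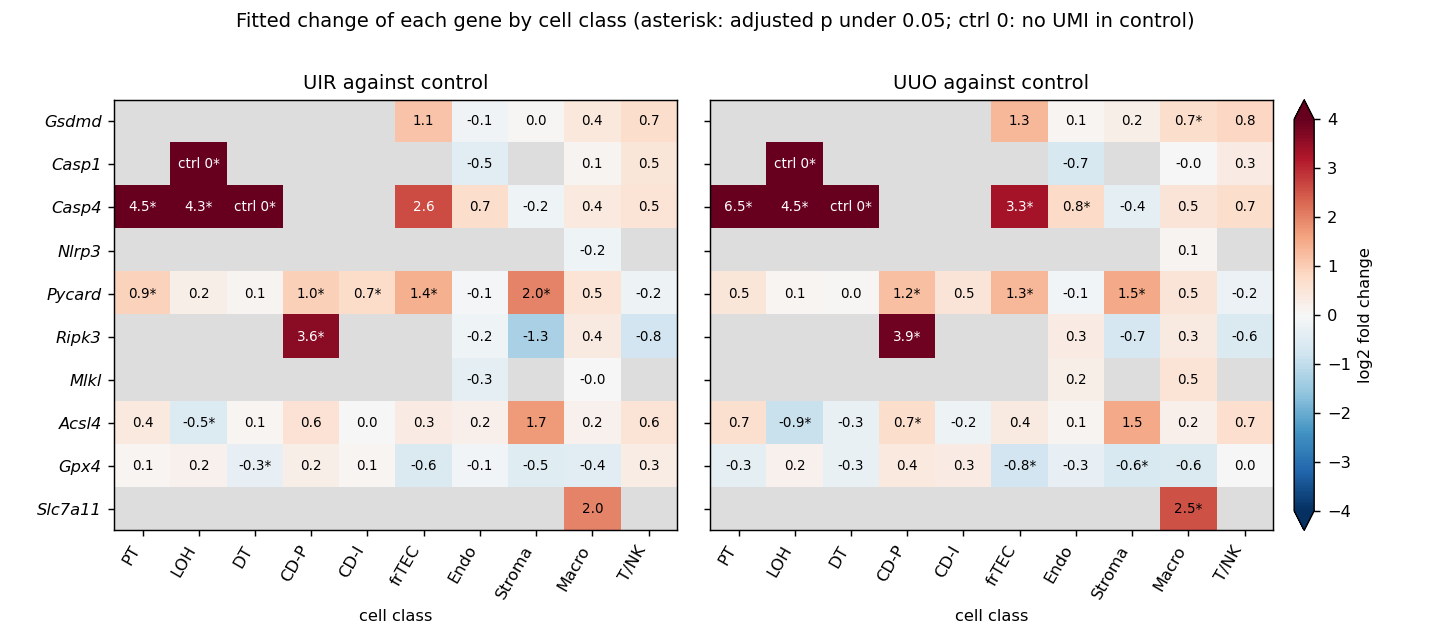
Log2 fold change against control (edgeR) in color and digits for each member (rows) and class (columns), UIR on the left and UUO on the right, with an asterisk where called and grey where not tested. Casp4 in LOH (4.26 and 4.48) and Ripk3 in CD-P (3.62 and 3.88) are high in both models, and pairs without a control UMI carry the mark ctrl 0 in place of a value, since their fitted change depends on the prior count.

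Casp4 rose in LOH in both models. It stood at 0, 4.63, 2.59, 0 and 4.68 CPM in Ctrl, N1, N2, AN1 and AN2, at 43.1, 48.1 and 48.2 CPM in UIR, UIR1 and UIR2, and at 47.2, 51.4 and 65.6 CPM in UUO, UUO1 and UUO2. Every injured library lay above every control, and the UIR libraries lay close together. The log2 fold change was 4.26 ± 0.42 in UIR (adjusted p = 3.271e-08, edgeR) and 4.48 ± 0.41 in UUO (adjusted p = 6.748e-09). The controls rest on 4 UMIs against 1190 and 716, and the ratio of summed counts was 22.9 in UIR (8.92 to 84.2, 95% counting interval) and 25.9 in UUO (10.1 to 95.2).

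Most control LOH cells fell in another cluster than the injured ones. The control cluster held 271 control cells, 85 UIR cells and 8 UUO cells, and within it Casp4 was at 1.59 CPM in controls (3 UMIs) and 7.43 CPM in UIR (4 UMIs). The 2 clusters that held nearly all other injured LOH cells stood at 41.2 and 66.2 CPM in UIR and at 41 and 61.3 CPM in UUO. The rise of Casp4 thus went with the appearance of these clusters. The part of RNA from other cells in these levels was not tested directly, and estimates of it follow. The free RNA share of a pool was estimated from markers of other compartments against the empty droplets, and it reached its ceiling of 100% in 4 of 5 control CD-P, 3 of 5 control CD-I, 1 of 3 control frTEC and 3 of 3 UIR frTEC pools, where it cannot be taken as a measured share. The 10 immune markers summed to 0 to 23.4 CPM in control LOH (3 of the 10 at 0), 79.6 to 133 CPM in UIR and 110 to 132 CPM in UUO. At the immune cells' own level this corresponds to 0.0875 to 0.16 CPM of Casp4 in injured LOH, and the empty-droplet profile to 0.582 to 1.05 CPM. PT cells of the same UIR libraries held 0.388 to 1.47 CPM.

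Casp4 was also called higher in DT, where it had no UMI in any of the 5 control libraries. The DT cells lay in different clusters by group, and the cluster with 366 of the UIR and 246 of the UUO cells held 1 control cell. Casp4 stood at 7.25 and 16.2 CPM in that cluster, and in the cluster of 379 control cells at 0 CPM in controls and 8.12 CPM in UIR on 2 UMIs. It stood at 3.24, 13.1 and 4.35 CPM in UIR, UIR1 and UIR2 and at 8.79, 16.8 and 20.2 CPM in UUO, UUO1 and UUO2. UIR was called (adjusted p = 0.006005, edgeR) on 51 UMIs, 33 of them in UIR1, and the call was lost at a mitochondrial limit of 15% (0.06602), where DT kept 4 control libraries. UUO was at least 14.3-fold above the control floor (adjusted p = 0.0002321), the floor being 3 counts over the whole group. The frTEC class also held cells of naive kidneys. In frTEC, Casp4 read 5.95, 8.83 and 0 CPM in Ctrl, N2 and AN2 and 30.6, 43.3 and 83.3 CPM in UUO, UUO1 and UUO2 (log2 3.33 ± 0.66, adjusted p = 0.01133, edgeR). The frTEC cells changed clusters too: 56 of 108 control cells were in a cluster with 82 UIR and 33 UUO cells, while the other 3 clusters held most injured cells. Within that first cluster Casp4 read 2.08 CPM in controls (1 UMI), 12.7 in UIR and 31.5 in UUO. The 3 UIR libraries, at 25.9, 27.9 and 32.4 CPM, also stood above the controls, with an adjusted p of 0.05171 (edgeR). The UUO call in frTEC was lost without Ctrl or AN2 (adjusted p = 0.05331 to 0.05956) and with free RNA subtracted (0.09102). At a finer clustering 54 control frTEC cells lay in a cluster led by Fst, Aqp1 and Lypd2. Another frTEC cluster, with Havcr1 and Vcam1 among its leading genes, held 13 control, 305 UIR and 71 UUO cells. The frTEC markers summed to 5190 CPM in controls, 3342 in UIR and 3039 in UUO. The frTEC contrasts of all members thus compare unlike cells as well.

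In PT, Casp4 was called on very few UMIs. The 5 controls held 1 UMI, the UIR libraries 13 (0.616, 1.47 and 0.388 CPM, adjusted p = 0.002973, edgeR) and the UUO libraries 3 from 39, 40 and 93 cells (52.5, 0 and 2.02 CPM, adjusted p = 0.03118). The empty-droplet profile at the estimated free RNA share would give 0.925 to 1.25 CPM in UIR, where 1 of 3 pools was above its expected level, and 0.926 to 5.72 CPM in UUO, where 2 of 3 were. The UUO call was lost without UUO or UUO2 (adjusted p = 0.08619 to 0.2689, edgeR). Collecting duct principal cells went from 0, 0, 3.34, 0 and 0 CPM to 8.6, 6.52 and 17.4 CPM of Casp4 in UUO and 2.27, 0 and 3.6 CPM in UIR, but this pair did not pass the count filter. With the filter left out it was called higher in UUO than in controls (log2 4.40, adjusted p = 6.859e-06, edgeR) and than in UIR (0.00618).

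Outside the tubule Casp4 moved less. In Endo the controls read 16.9, 21.3, 22.4, 15.5 and 28.7 CPM, UIR 41.4, 33.5 and 26.9 CPM and UUO 35, 34.9 and 41 CPM. UUO lay above all controls and was called (log2 0.76 ± 0.20, adjusted p = 0.01524, edgeR), whereas UIR overlapped them and was not (adjusted p = 0.1029). The Endo call was lost without Ctrl or UUO2 (adjusted p = 0.05647 to 0.06676) and with free RNA subtracted (0.06391). Stroma already held Casp4 in controls, at 64.8 ± 17.7 CPM (SD, n = 3), against 49.4 ± 13.1 in UIR and 45.1 ± 6.65 in UUO, with no call.

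Casp1, the inflammasome protease next door to Casp4, rose in the tubule in LOH. No UMI was seen in any control LOH pool, and UIR, UIR1 and UIR2 stood at 4.97, 4.67 and 5.31 CPM and UUO, UUO1 and UUO2 at 7.18, 5.63 and 6.1 CPM. The injured libraries were tight around their means and all lay above 0, on 128 and 86 UMIs. This was at least 3.29-fold over the control floor of 1.53 CPM in UIR (adjusted p = 0.00335, edgeR) and at least 4.14-fold in UUO (adjusted p = 0.001185). Within LOH, Casp1 had 1 UMI in the 85 UIR cells of the control cluster, and free RNA would give 0.417 to 0.999 CPM in injured LOH. In Macro, where Casp1 is abundant, controls read 59.5, 51.2, 35.2, 53.2 and 23.9 CPM and the injured libraries 36.6 to 45.1 CPM, with overlap and no call (log2 0.12 ± 0.23 in UIR and -0.02 ± 0.23 in UUO).

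**Figure D3:**
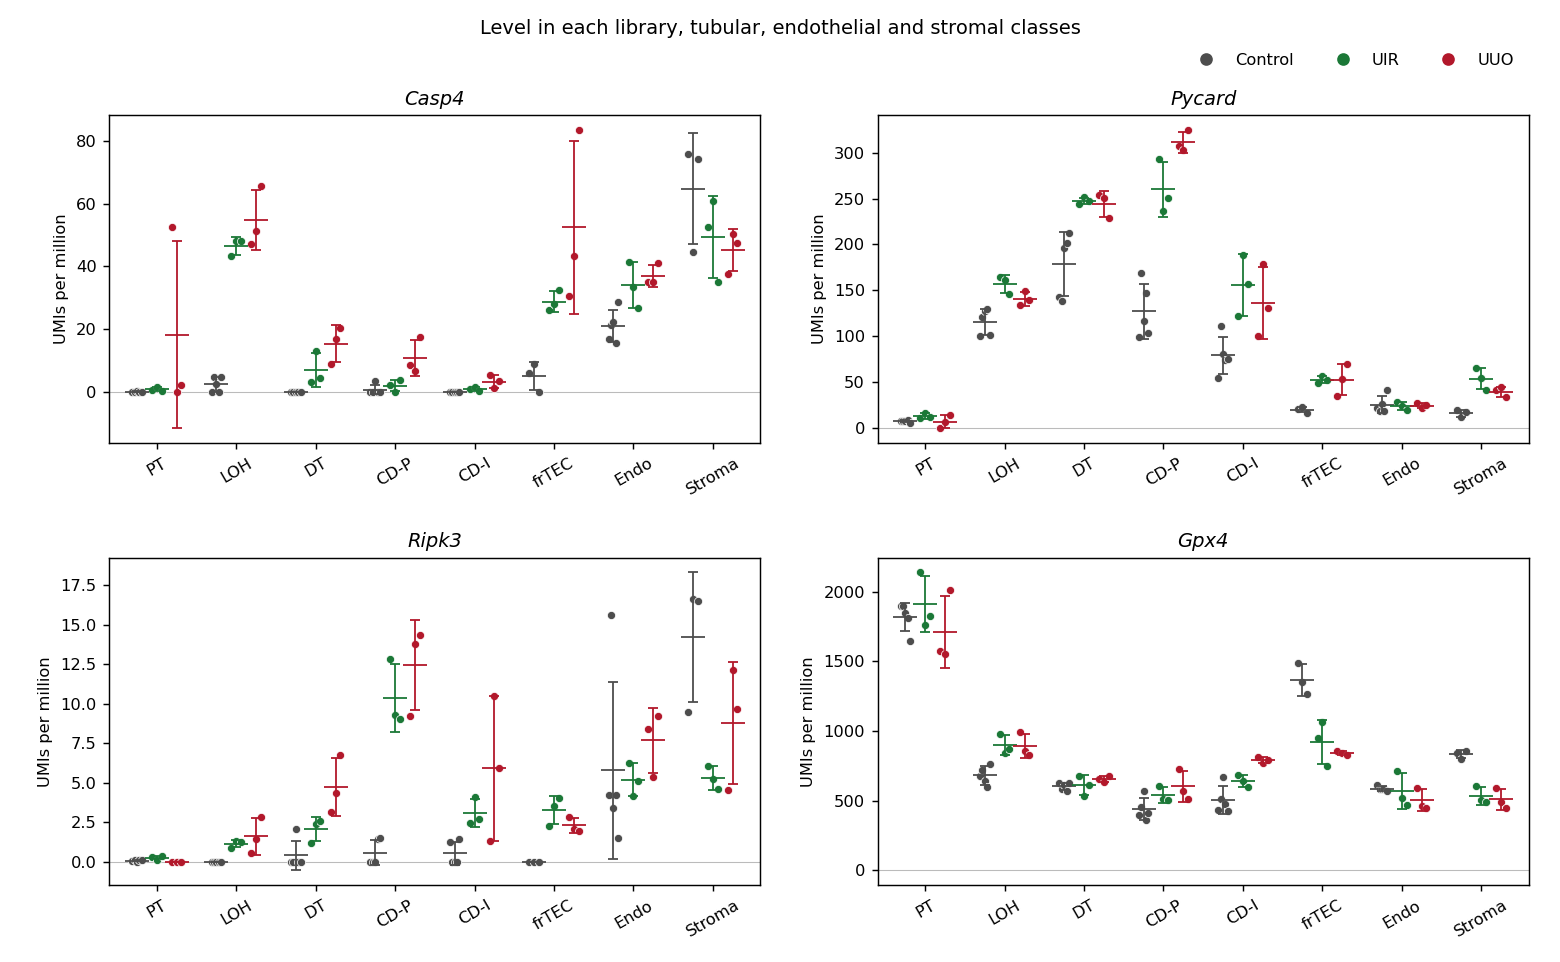
CPM in each library (points) with the group mean and SD for Casp4, Pycard, Ripk3 and Gpx4 in tubular, endothelial and stromal classes, in pools of at least 20 cells on linear axes. Casp4 in LOH and Pycard and Ripk3 in CD-P separate all injured libraries from all controls, and Casp4 in UUO PT rests on 1 library at 52.5 CPM.

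Pycard, the adaptor, rose from an existing level in the collecting duct. In CD-P the controls read 98.6, 168, 117, 147 and 104 CPM, UIR 293, 236 and 250 CPM and UUO 308, 303 and 324 CPM. All 6 injured libraries were above all controls, by 0.96 ± 0.17 on the log2 scale in UIR (adjusted p = 0.0003588, edgeR) and 1.21 ± 0.16 in UUO (adjusted p = 9.077e-06). Here too the cells lay mostly in other clusters, but within the cluster of 222 control cells Pycard was at 126 CPM in controls and 170 CPM in the 150 UIR cells. In CD-I, Pycard went from 78.8 ± 20.4 CPM (SD, n = 5) to 155 ± 33.7 in UIR (n = 3, log2 0.74, adjusted p = 0.01171), a call lost without UIR1 (adjusted p = 0.09101) and with free RNA subtracted (0.1172), and to 136 ± 39.4 in UUO, which overlapped the controls and was not called. A CD-I cluster of 171 UIR and 172 UUO cells held no control cell, within the cluster of 147 control and 221 UIR cells Pycard was at 90 and 147 CPM, and within that of 107 control and 170 UIR cells at 74.5 and 147 CPM.

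In Stroma, Pycard read 18.9, 11.1 and 16.5 CPM in N1, N2 and AN1, on 6 UMIs, against 64.7, 54.3 and 41.3 CPM in UIR and 40.5, 43.9 and 33 CPM in UUO. Both rises were called (log2 1.999 ± 0.45, adjusted p = 0.004772, and 1.52, adjusted p = 0.03484, edgeR), but the UIR call was lost without N2 (adjusted p = 0.05511) and the UUO call without any 1 of N1, N2, AN1, UUO or UUO1 (0.05814 to 0.1877). Control stroma was mostly of the Fibro 3 type (91 of 108 cells), in which Pycard was at 16.7 CPM in controls, 28.8 in UIR and 7.2 in UUO, whereas injured stroma was mostly Fibro 1 and 2, with Pycard at 76.2 CPM in UIR and 52.4 CPM in UUO Fibro 1. The change and the change of cell type cannot be told apart. In PT, Pycard read 7.59, 6.81, 7.16, 8.72 and 5.17 CPM in controls and 10.5, 16.3 and 12 CPM in UIR (adjusted p = 0.002948), with free RNA giving 7.59 to 9.52 CPM of the UIR level. Without UIR1 the adjusted p was 0.1624, and with free RNA subtracted 0.4311 (edgeR). In frTEC, Pycard was called in both models, at 49 to 55.8 CPM in UIR and 34.8 to 69.4 CPM in UUO, where free RNA would give 51.5 to 72.1 CPM in UIR and 58.3 to 64.1 CPM in UUO. The UIR estimate is at the ceiling of 100% in all 3 pools, and Casp4 in these pools stood above its expected 6.92 to 8.79 CPM. In the cluster with most control frTEC cells Pycard read 12.5 CPM in controls (6 UMIs), 37.2 in UIR and 45.5 in UUO. Each Pycard call was lost without any 1 of 5 libraries, among them Ctrl and AN2 (adjusted p = 0.05362 to 0.1369). In Macro and T/NK no Pycard call was made.

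Gsdmd was called in macrophages of UUO alone among its tested pairs. The controls read 36.8, 23.9, 32.2, 26.6 and 39.2 CPM, UIR 41.8, 38.2 and 38.9 CPM and UUO 56.8, 48.7 and 48.9 CPM. UUO lay above all controls (log2 0.70 ± 0.18, adjusted p = 0.01204, edgeR), while UIR overlapped them at its lower end (log2 0.42 ± 0.19, adjusted p = 0.1726). Macrophages changed clusters as well: 262 of 451 control cells lay in a cluster with 1381 UUO cells, 125 in one with 2784 UUO cells, and a cluster of 122 UUO cells held no others. In the first Gsdmd read 43.4 CPM in controls, 43 in UIR and 54.4 in UUO, and in the second 39.6, 27.1 and 48 CPM. Another macrophage cluster held 64 control, 163 UIR and 306 UUO cells, and its Gsdmd level was not described. The UUO call of Gsdmd was lost at a finer clustering (adjusted p = 0.6324, edgeR), without the N libraries (0.07221) and with free RNA subtracted (0.1268). At the finer clustering a cluster of 63 control, 165 UIR and 309 UUO cells, with Top2a and Mki67 among its leading genes, was left unnamed. How much of the Gsdmd change such cells carry was not tested. The difference between the models, 0.29 at most over 7 tested classes, was not called. In Endo, Gsdmd was 33.6 ± 7.76 CPM in controls (SD, n = 5), 30.4 ± 7.52 in UIR and 36.4 ± 1.52 in UUO. In the tubule it was low. LOH pools held none in controls, 1.02 ± 0.13 CPM in UIR and 1.4 ± 0.36 CPM in UUO (n = 3 each), where free RNA would give 0.582 to 0.697 and 1.11 to 1.29 CPM. In frTEC it read 8.64 to 11.2 CPM in UIR and 9.24 to 15.9 CPM in UUO against 4.93 ± 4.5 CPM in controls (SD, n = 3), with no call (adjusted p = 0.3946 and 0.2867, edgeR), and in UUO it read 1.15 to 5.53 CPM in CD-P and 1.1 to 6.59 CPM in CD-I, where free RNA would give 3.49 to 5.63 and 4.69 to 6.22 CPM.

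Nlrp3 was a myeloid transcript in all 3 groups. Immune cells held 97.55% to 99.03% of its UMIs in UIR and UUO and 98.18% in controls. In Macro, controls read 19.8, 20.5, 8.79, 26.6 and 39.2 CPM, UIR 19.9, 16.1 and 21.8 CPM and UUO 29, 23.7 and 22.6 CPM. The groups overlapped, and the log2 fold changes of -0.17 ± 0.30 and 0.11 ± 0.29 were not called (adjusted p = 0.7782 and 0.8403, edgeR). All tubular cells of the UIR libraries held 8 UMIs of Nlrp3, so a tubular level was not detectable at this depth.

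Ripk3, the necroptosis kinase, was called only in CD-P among its tested pairs, and rose there in both models. The controls read 0, 0, 0, 1.45 and 1.52 CPM, UIR 12.8, 9.28 and 9.01 CPM and UUO 9.21, 13.8 and 14.3 CPM. The lowest injured library was thus well above the highest control. The log2 fold change was 3.62 ± 0.65 in UIR (adjusted p = 0.000538, edgeR) and 3.88 ± 0.63 in UUO (adjusted p = 6.484e-05), from 2 control UMIs against 45 and 65, with count ratios of 14.7 (3.84 to 125) and 17.9 (4.76 to 151). Within the cluster that held 222 control cells Ripk3 was at 0.723 CPM in controls and 4.06 CPM in UIR, and in the cluster of 132 UIR and 204 UUO cells at 16.9 and 14.9 CPM. Immune RNA would give 0.0519 to 0.0997 CPM and free RNA 0.735 to 2.16 CPM in injured CD-P. These CD-P levels were near those of macrophages, which read 10.2 ± 4.39 CPM in controls (SD, n = 5), 11.9 ± 1.86 in UIR and 12.3 ± 1.67 in UUO (n = 3 each), with no call. In DT and CD-I Ripk3 did not pass the count filter. DT read 0 to 2.09 CPM in controls and 3.14 to 6.75 CPM in UUO, and CD-I 0 to 1.47 and 1.32 to 10.5 CPM. With the filter left out Ripk3 was called higher in UUO in DT (log2 3.12, adjusted p = 0.01452, edgeR) and CD-I (log2 2.92, adjusted p = 0.007134).

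Mlkl, the effector of Ripk3, was tested only in Endo and Macro and was called in neither. In Endo the controls read 16, 22.7, 12, 18.3 and 18.2 CPM, UIR 13.9, 14.1 and 14.2 CPM and UUO 21.4, 19.4 and 24.1 CPM, with adjusted p = 0.5832 and 0.5546 (edgeR). In CD-P, where Ripk3 rose, Mlkl had no UMI in any control and stood at 0, 0.714 and 1.2 CPM in UIR and 4.91, 6.52 and 8.19 CPM in UUO. All UUO libraries lay above all UIR libraries there, but this pair did not pass the count filter and was called higher only when the filter was left out.

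Acsl4, which prepares lipids for peroxidation, was called lower in LOH in both models and higher in CD-P in UUO, and in no other class. In LOH it read 148, 74.1, 72.5, 132 and 53.9 CPM in controls, 79.4, 82 and 80.9 CPM in UIR and 65, 67.4 and 57 CPM in UUO. The controls were widely spread and overlapped both models, and the calls of a fall (log2 -0.53 ± 0.20, adjusted p = 0.04465 in UIR, and -0.88 ± 0.21, adjusted p = 0.001553 in UUO, edgeR) rest on the scaling between pools as well, which moved LOH values by -0.23 and -0.23 on the log2 scale. The UIR call was lost without any 1 of Ctrl, AN1, UIR1, UIR2 or UUO2 (adjusted p = 0.05031 to 0.3707) and by DESeq2 (0.07121). In CD-P, Acsl4 read 53.8, 49.4, 30.1, 23.2 and 33.5 CPM in controls and 66.3, 64.1 and 67.5 CPM in UUO, above all controls (log2 0.69 ± 0.20, adjusted p = 0.01087, or 0.1523 without the AN libraries), and UIR, at 60.4, 59.2 and 63.1 CPM, was also above them with an adjusted p of 0.05235. Free RNA would give 10.4 to 25.1 CPM in control CD-P, at an estimated share of 80.5% to 100%, and 6.34 to 9.52 CPM in UUO. Most control cells lay in clusters with few UUO cells (271 beside 8 in LOH and 222 beside 12 in CD-P). Acsl4 within these clusters was not described.

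Gpx4, the lipid peroxide reductase, was called lower in frTEC and Stroma of UUO, with calls that did not hold up under other settings. In frTEC it read 1491, 1351 and 1262 CPM in Ctrl, N2 and AN2, 950, 1070 and 752 CPM in UIR and 859, 841 and 829.4 CPM in UUO. Both models lay below all controls, and UUO was called (log2 -0.76 ± 0.18, adjusted p = 0.0256, edgeR), UIR not (log2 -0.57 ± 0.17, adjusted p = 0.09413). Gpx4 differed between the frTEC clusters, whose make-up changed with injury. In the cluster with most control cells it read 1789 CPM in controls, 1186 in UIR and 1402 in UUO, and in the one with 414 UIR and 109 UUO cells 1226, 1294 and 1101 CPM. Free RNA would give 343 to 1157 CPM of Gpx4 in control frTEC and 249.6 to 352 CPM in UUO, and with it subtracted the UUO call was lost (adjusted p = 0.995), as it was without any 1 of Ctrl, N2, AN2, UUO, UUO1 or UUO2 (0.05585 to 0.1096). In Stroma, Gpx4 read 843, 799 and 857 CPM in N1, N2 and AN1 and 589, 492 and 443 CPM in UUO (log2 -0.60 ± 0.17, adjusted p = 0.02458), with UIR at 604, 501 and 489 CPM (adjusted p = 0.07114), again beside the change from Fibro 3 to Fibro 1 and 2. This UUO call was lost without any 1 of N1, N2, AN1, UUO1 or UUO2 (adjusted p = 0.0712 to 0.1022, edgeR) and with free RNA subtracted (0.1953).

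In DT, Gpx4 was called lower in UIR (log2 -0.34 ± 0.13, adjusted p = 0.03623, edgeR) although its CPM overlapped, at 602 ± 26.2 in controls (SD, n = 5) and 608 ± 71.6 in UIR (n = 3). The scaling between pools moved DT values by -0.36 on the log2 scale. The estimated free RNA would give 260 to 481 CPM of Gpx4 in control DT pools and 112 to 172 CPM in UIR pools, and with it subtracted the change was 0.51, in the other direction. The same estimate exceeded the observed Gpx4 level in all 5 control CD-P pools, so it is no measured carry-over. The call was lost without any 1 of Ctrl, N2, AN2, UIR1 or UIR2 (adjusted p = 0.05662 to 0.2103). PT held the most Gpx4, at 1820 ± 102 CPM in controls, 1909 ± 201 in UIR and 1712 ± 259 in UUO, overlapping throughout, with no call in either model (log2 0.08 ± 0.19 and -0.35 ± 0.20, adjusted p = 0.8627 and 0.3888, edgeR).

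Slc7a11, the cystine importer, was uneven among the immune classes. In neutrophils, a class without a control pool, it stood at 340, 380 and 325 CPM in UUO, UUO1 and UUO2, on 332 UMIs in 311 cells, and at 292 CPM over the 44 UIR neutrophils (25 UMIs, exact 95% Poisson interval 189 to 430 CPM, counting error only). The UIR value is uneven, at 948, 75.2 and 233 CPM in UIR, UIR1 and UIR2 on 15, 3 and 7 UMIs. In macrophages of the same UUO libraries it was at 5.19, 6.91 and 8.27 CPM. The neutrophil level lay above the macrophage level in each UUO library, a description with no test. In Macro the controls read 0, 3.42, 2.93, 0 and 0 CPM and UIR 2.91, 3.02 and 6.68 CPM. UUO was called against control (log2 2.55 ± 0.82, adjusted p = 0.04096, edgeR) on 2 against 120 UMIs, a ratio of 6.1 (1.65 to 50.9). In the macrophage cluster with most control cells Slc7a11 read 0 CPM in controls, 5.47 in UIR and 8.44 in UUO, and in the cluster of UUO cells alone 20.5 CPM on 5 UMIs. The call was lost without any 1 of Ctrl, AN1 or AN2 (adjusted p = 0.06983 to 0.1053) and by DESeq2 (0.05117). In cDC2, Slc7a11 read 5.73 ± 2.39 CPM in UIR and 11 ± 1.73 CPM in UUO (SD, n = 3 each).

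**Figure D4:**
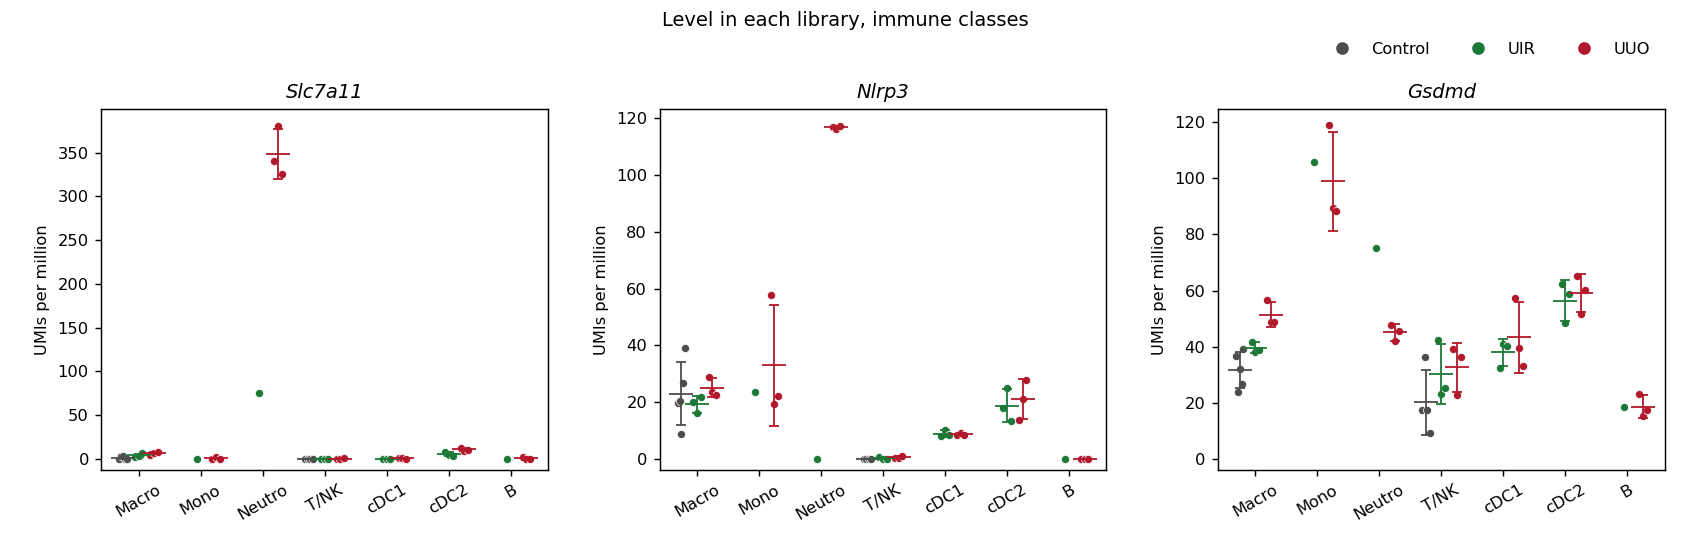
CPM in each library (points) with the group mean and SD for Slc7a11, Nlrp3 and Gsdmd in immune classes, on linear axes. Slc7a11 and Nlrp3 in neutrophils are shown for the libraries with at least 20 neutrophils, and Gsdmd in Macro is above all controls in the 3 UUO libraries.

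Neutrophils and monocytes, both without a control pool, also held high levels of other members. Nlrp3 stood at 117, 116 and 117 CPM in neutrophils of UUO, UUO1 and UUO2 and at 33 ± 21.3 CPM in their monocytes (SD, n = 3). Monocytes of UUO read 109 ± 8.67 CPM of Casp1, 98.8 ± 17.5 CPM of Gsdmd and 67 ± 7.61 CPM of Casp4 (n = 3), against 41.3 ± 4.21, 51.4 ± 4.6 and 22.4 ± 2.33 CPM in macrophages of these libraries. The 3 pyroptosis genes were thus higher in monocytes than in macrophages in every UUO library, with no test made.

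Whether the compartments changed differently was tested in the fit across classes. For Casp4 the tubular mean went from 0.615 to 11.4 CPM in UIR and 20.5 CPM in UUO, and the immune mean from 21.6 to 27.8 and 31.8 CPM. The changes differed between tubule and immune cells (adjusted p = 0.0004153 in UIR and 5.157e-06 in UUO, edgeR) and between tubule and endothelium (adjusted p = 0.0001129 and 1.582e-06). The tubular mean of Casp4 weighs unlike classes alike. In UIR, LOH held 43.15 to 48.16 CPM, and PT, CD-P and CD-I at most 3.6 CPM. The UUO mean includes PT pools at 0 to 52.5 CPM. In UIR the tubule also changed more than immune cells for Casp1 (adjusted p = 0.01054, or 0.05545 without UIR1 and 0.1272 with immune RNA subtracted) and Ripk3 (adjusted p = 0.003141). At the 15% mitochondrial limit LOH, CD-P and CD-I kept only 1 control library of 20 cells. The UIR calls of Casp4 against immune cells and against endothelium were lost there. So were all such calls of Gsdmd, Casp1, Ripk3 and Mlkl. Ripk3 went from 0.328 to 3.4 CPM in the UIR tubule and from 17.9 to 13.2 CPM in immune cells. The background of such calls was 7.02% between tubule and immune cells, 12.9% between tubule and endothelium and 0.648% between endothelium and immune cells in UIR, and 9.97%, 17.3% and 1.58% in UUO.

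Pycard and Mlkl differed between tubule and endothelium in UIR (Pycard by 0.73 ± 0.24 on the log2 scale, adjusted p = 0.03455, and Mlkl with an adjusted p of 0.004436, edgeR). The Pycard call was lost without any 1 of Ctrl, N2, AN2, UIR1, UIR2, UUO, UUO1 or UUO2 (adjusted p = 0.06753 to 0.4213). Gsdmd was called in both models against immune cells and against endothelium, on a tubular mean of 1.05 CPM in UIR and 2.24 CPM in UUO from 0.0643. In UIR its level was above the estimated free RNA in 3 of 3 LOH and 2 of 3 PT pools but in 0 of 3 pools of DT, CD-P and CD-I, and in UUO in 2 of 3 LOH, 2 of 3 PT, 0 of 3 DT, 1 of 3 CD-P and 1 of 3 CD-I pools. The estimated free RNA share was 34.5% to 52.7% in UIR CD-P and 41.5% to 65.7% in UIR CD-I. Immune markers gave a carry-over of 0.508% to 0.728% there. Whether tubular cells make some of the markers used was not tested, so the estimate is no measured carry-over. The UIR call of Gsdmd against immune cells was lost without any 1 of 8 libraries (all but UIR, UUO and UUO1, adjusted p = 0.05018 to 0.1392). No member was called between endothelium and immune cells in either model by edgeR, with 2, Gsdmd and Casp1, at an unadjusted p below 0.05 in both models. In UUO the tubular contrasts for Casp1, Ripk3, Mlkl, Nlrp3 and Slc7a11 could not be estimated, with 2 to 8 terms (a class in a group) without a UMI. The called contrasts held such terms too: 3 for Gsdmd and 2 for Casp4 in both models. In UIR they were 3 for Casp1, 3 for Mlkl and 1 for Ripk3. For these calls no log2 difference can be given, only the adjusted p. The number of such terms does not separate called from uncalled contrasts.

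UUO and UIR were also compared with each other. Of 120 pairs in 12 classes, 71 were tested and 0 were called in either direction by edgeR or DESeq2, with 5 at an unadjusted p below 0.05. Over all genes 0.803% were called higher and 1.02% lower in UUO. Casp4 in LOH, at 46.5 ± 2.89 CPM in UIR and 54.7 ± 9.64 CPM in UUO, overlapped between the models.

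The share of each member's UMIs held by immune cells was compared as well. Immune cells held 3.95% ± 0.67 of all UMIs in controls (SD, n = 5), 24.6% ± 5.37 in UIR and 42% ± 6.75 in UUO (n = 3 each). For Gsdmd their share went from 30.7% ± 4.45 to 67.1% ± 6.92 in UIR and 73.9% ± 3.18 in UUO. For Slc7a11 it went from 15% ± 22.4, on 17 control UMIs of which 2 were immune, to 67.2% ± 7.33 and 91.1% ± 3.71. Gpx4 went from 1.18% ± 0.50 to 10.2% ± 2.68 and 24.3% ± 5.56. These reached the smallest p that 5 against 3 libraries allow (0.03571, exact permutation test, two-sided, 56 arrangements) but not 0.05 after adjustment over the 10 members (0.07143 in UIR and 0.05102 in UUO).

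Casp4 went another way. Its immune share was 31.2% ± 8.64 in controls (SD, n = 5), 23.5% ± 4.54 in UIR and 37.6% ± 7.72 in UUO (n = 3 each), overlapping throughout (exact permutation p = 0.2143 and 0.3214). Of all Casp4 UMIs the tubule held 5.81% in controls, 57% in UIR and 38.3% in UUO, and the endothelium 45.4%, 9.97% and 15.2%. Of the UMIs of all genes the tubule held 86.15%, 61.69% and 38.61% in the same order. The tubular share of Casp4 was thus far below that of all genes in controls and near it in both models. In UIR the tubule thus held more Casp4 UMIs than the other compartments, with 1190 of all 2757 UMIs in LOH. Nlrp3 stayed immune, at a mean over libraries of 98.5% in controls, 97.7% in UIR and 99% in UUO.

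**Figure D5:**
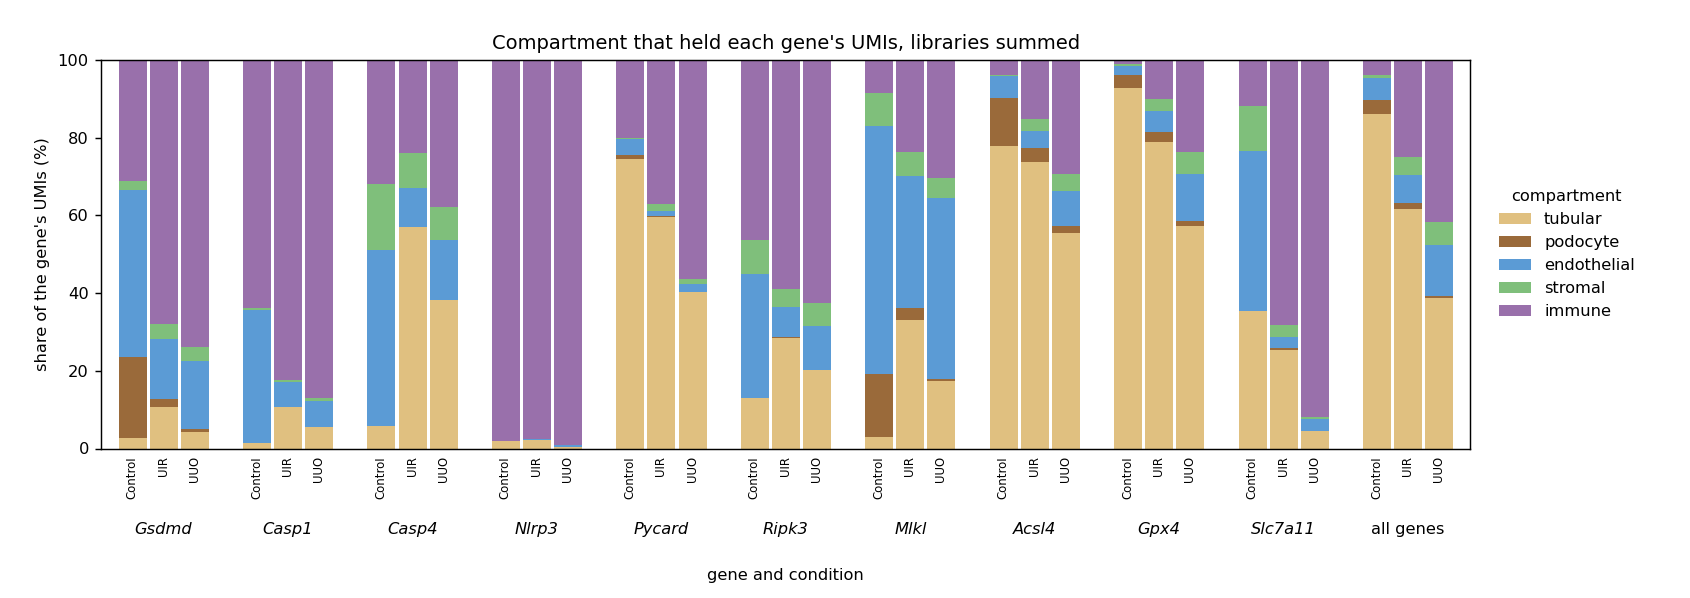
Share (percent) of each member's UMIs held by tubular, podocyte, endothelial, stromal and immune cells, summed over the libraries of a group. Nlrp3 is mostly immune in all groups. The immune share of Slc7a11 is higher in both models, from 17 control UMIs. The tubular share of Casp4 is higher in both models than in controls and near the tubule's share of all UMIs there.

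Other genes of the 3 pathways were described from lists. The lists were chosen with earlier results of these data known, so their shares beside those of all genes are a description and no test. Of the inflammasome and pyroptosis list (23 genes), 15 of 111 tested pairs were higher and 4 lower in UIR and 16 and 8 in UUO, beside 7.95% higher and 6.7% lower over all genes in UIR and 10.2% and 9.45% in UUO. The medians were log2 0.26 and 0.30 over the tested pairs (0.26 and 0.30 with genes absent from a group set at their bound) beside 0.03 and 0.03 over all genes. Gbp2, a guanylate-binding protein that helps expose bacterial lipopolysaccharide to Casp4, went from 0.552 ± 1.23 CPM in control LOH to 35.3 ± 9.12 in UIR and 47.9 ± 19 in UUO, and from 16.9 to 62.1 and 141 CPM in CD-P (adjusted p = 3.15e-06 and 3.163e-07 in LOH, edgeR). It was called higher in 4 classes in UIR and 5 in UUO. Dfna5 (Gsdme), another gasdermin, had no UMI in control Stroma and read 61.8 and 89.8 CPM in UIR and UUO, but in Macro it was called lower, from 42.3 to 17.9 and 18.9 CPM. Panx1, a membrane channel, went from 2.21 to 12.4 CPM in UIR LOH, and Ninj1, which breaks membranes late in lytic death, from 56.4 to 169 CPM in UUO Macro while it fell from 134 to 80.3 CPM in UUO PT. Between the models Il1rn, the interleukin-1 receptor antagonist, was higher in UUO in DT (2.46 against 20 CPM, log2 2.94 ± 0.47).

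Of the necroptosis list (19 genes), 18 of 174 tested pairs were higher and 3 lower in UIR and 35 and 3 in UUO, against the same shares over all genes (7.95% and 6.7%, and 10.2% and 9.45%), with medians of 0.17 and 0.31 (0.17 and 0.30 with bounds). Birc3, a ubiquitin ligase that restrains Ripk1, was called higher in 6 classes of either model, in DT from 7.4 ± 3.02 CPM to 46.3 ± 5.46 in UIR and 66.1 ± 6.74 in UUO. Tnfrsf1a, the tumour necrosis factor receptor that starts the pathway, was called higher in 3 classes in UIR and 6 in UUO, in Endo from 184 to 270 CPM in UUO. Traf2 rose in LOH from 11.2 to 27.6 CPM in UIR, and Birc2 from 39.7 to 97.1 CPM in UUO LOH. Tnf itself had no UMI in control DT and was higher in UUO than in UIR there, at 12.2 against 3.21 CPM (log2 1.87 ± 0.40, adjusted p = 0.005104, edgeR).

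Of the ferroptosis list (35 genes, 34 tested), 32 of 288 tested pairs were higher and 35 lower in UIR and 35 and 54 in UUO, where all genes gave 7.95% and 6.7% in UIR and 10.2% and 9.45% in UUO, with medians of -0.02 and -0.08 (-0.02 and -0.08 with bounds). Hspb1, a small heat shock protein, was called higher in 7 classes of each model, in LOH from 26.1 to 215 and 287 CPM, and lower in UUO Endo, from 610 to 411 CPM. Tfrc, the transferrin receptor that brings iron into cells, fell in DT from 238 ± 55.8 CPM to 16.7 ± 0.78 in UUO (log2 -4.28 ± 0.19, adjusted p = 1.507e-13, edgeR) and was called lower in 6 classes. Acsl1, a relative of Acsl4 that favours saturated fatty acids, fell in 5 classes in UIR, in DT from 166 to 48.2 CPM, and Gsr, which regenerates glutathione, rose in DT from 36.9 to 85 CPM and fell in Stroma from 50.6 to 14.1 CPM in UIR. Cbs was called lower in 5 classes in UUO, in Macro from 20.3 to 0.704 CPM, beside 135 CPM in control PT, and how much of the control value was free RNA was not tested. Sat1 was higher in UUO than in UIR in Endo (289 against 495 CPM, log2 0.73 ± 0.15).

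Across 43 points, each the mean of a class in a group, the genes whose log2(CPM + 1) pattern was most like a member's were found among 8909 genes, as Pearson's r with no test, since the points share libraries and depth. For Gsdmd these were Crlf2 (r = 0.94) and Emp3 (0.93), for Casp1 Zbp1 (0.94) and Lrmp (0.94), and for Casp4 Chst12 (0.81) and Msn (0.81). Nlrp3 was most like Mctp1 (0.92) and Lrrc25 (0.90), Pycard like Cytip (0.84) and Mapkapk3 (0.83), Ripk3 like Ifi47 (0.87) and Coro2a (0.87), and Mlkl like Smc1a (0.81) and Vamp3 (0.77). Acsl4 was most like Asb15 (0.77) and Hs3st6 (0.76), Gpx4 like Gatad1 (0.89) and Ugp2 (0.85), and Slc7a11 like Asprv1 (0.90) and Trem1 (0.89).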

How the data were processed

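Raw droplet matrices of UMI counts per gene and barcode, empty droplets included, were deposited by the authors for each of the 11 libraries, made per the labels' processing notes with Cell Ranger 3.1.0 on mm10 (the study's methods name another version). Decontaminated or doublet-filtered counts were not used here. Cells were called above 500 UMIs against the empty droplets (10000 simulations, FDR 0.01), then kept below 30% mitochondrial and 5% hemoglobin UMIs with at least 200 genes. The 7.5% of barcodes with the highest simulated-doublet score were removed, 3268 in all. Cells were clustered (2000 variable genes, 40 components, 20 neighbours, Leiden resolution 1, leidenalg 0.10.2) and named by fixed markers with a rule that was revised after the marker tables had been seen, so shares may differ from the study's.

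UMIs were summed per library and class and tested with edgeR 4.0.16 (quasi-likelihood, TMM, filterByExpr) in R 4.3.3, with Benjamini-Hochberg adjustment over all genes of a class and contrast, and with DESeq2 1.42.0 as an alternative. The fit across compartments held 87 pools and 13885 genes with library as a block. The test was run on simulated counts with known fold changes, where it found all of the large changes and missed part of the small ones. Only well-expressed genes of LOH and Macro were changed there, so the run does not cover pairs with few or no control UMIs. Each library is a replicate. The study's methods give 3 mice per model and 5 naive mice, as many as the libraries, and the labels do not tie libraries to mice. The p-values measure the spread between libraries. Intervals (95%) and floors (3 counts) cover counting error only. The free RNA share of a pool was estimated from markers of other compartments and the immune share from 10 immune markers. All 10 members are named in every class tested, and of each pathway list the 3 genes called in most classes, ties by size. Members and lists were chosen with earlier results of these data known. Promoters came from RefSeq and gene positions from GENCODE vM21.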

Additional observations from a re-analysis of the deposited data

Results flagged for a closer look

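Groups of control libraries with at least 20 UMIs were checked for an outlying library by Dixon's Q. The check flags about 1 in 20 groups of independent normal values. These groups share libraries, so no excess over chance can be read from the count. In 33 such groups 5 libraries were flagged. They were Ripk3 in Endo of N1 (15.6 CPM, next 4.23 CPM), Gpx4 in Endo of Ctrl (615 CPM, next 583 CPM), Gpx4 in Macro of N2 (858 CPM, next 442 CPM), Pycard in T/NK of AN1 (297.5 CPM, next 231 CPM) and Gpx4 in T/NK of N2 (546 CPM, next 351 CPM). N2 was the high library for Gpx4 in both immune classes, and empty droplets of the controls held 522 to 1638 CPM of Gpx4. The estimated free RNA share of N2 Macro was 92.8%, against 24% to 43.9% in the other control Macro pools, and would give 557 CPM of its Gpx4. In T/NK of N2 the share was 19.4%, against 13.1% to 20.9% in the other pools tested.

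The change in UIR differed between tubule and immune cells for Gsdmd (adjusted p = 0.04418, edgeR interaction contrast), Casp1 (0.01054), Casp4 (0.0004153) and Ripk3 (0.003141), and between tubule and endothelium for Gsdmd (0.001543), Casp1 (0.000479), Casp4 (0.0001129), Pycard (0.03455), Ripk3 (0.003065) and Mlkl (0.004436). The change in UUO differed between tubule and immune cells for Gsdmd (adjusted p = 0.003592) and Casp4 (5.157e-06), and between tubule and endothelium for Gsdmd (6.199e-05) and Casp4 (1.582e-06). In each the tubule changed upward relative to the other compartment, although in UIR Gsdmd was above the estimated free RNA level in 0 of 3 pools of DT, CD-P and CD-I, and Casp1 in 0 of 3 pools of PT, CD-P and CD-I and 1 of 3 of DT. That free RNA level is an estimate and no measured carry-over. Leaving out any 1 of 8 libraries lost the Gsdmd call in UIR against immune cells (adjusted p = 0.05018 to 0.1392) and the Pycard call against endothelium (0.06753 to 0.4213), leaving out UIR1 lost Casp1 against immune cells (0.05545) and leaving out N1 lost Ripk3 against endothelium (0.103). With immune RNA subtracted, Gsdmd and Casp1 in UIR were no longer called between tubule and immune cells (adjusted p = 0.1637 and 0.1272).

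Monocytes and neutrophils had no control pool of 20 cells and entered no test. Of all classes and conditions they held the highest mean level of Pycard (318 CPM in UUO monocytes), Gsdmd (106 CPM in the UIR monocyte pool), Casp1 (109 CPM in UUO monocytes), Casp4 (67 CPM in UUO monocytes), Slc7a11 (349 CPM in UUO neutrophils) and Nlrp3 (117 CPM in UUO neutrophils), above the control mean of every class tested.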

How the results depend on the processing

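Of 183 tested pairs 28 were called, and 11 of these stayed called under every alternative that gave a value, among them Casp4 and Casp1 in LOH, and Ripk3 and Pycard in CD-P, in both models (these classes gave no value at a mitochondrial limit of 15%, where only 1 control library kept 20 cells). Casp4 and Casp1 in LOH and Ripk3 in CD-P had few or no control UMIs. Most alternatives reuse the same control pools, so staying called is no separate evidence for these pairs. A further 26 uncalled pairs were called under at least 1 alternative. The 10 pairs higher in UIR became 18 with no low-count filter, 1 at a mitochondrial limit of 15%, 16 at 50%, and 6 to 12 on leaving out each library. The 2 lower in UIR became 1 with no filter, without the N libraries, without the AN libraries and with free RNA subtracted, 0 at 15%, 4 with the replicate block, and 0 to 2 on leaving out each library. The 13 higher in UUO became 23 with no filter, 8 without the AN libraries, 3 at 15%, 8 with 15% of barcodes removed as doublets, and 8 to 14 on leaving out each library. The 3 lower in UUO became 1 without the N libraries, with 15% doublets and with free RNA subtracted, 0 at 15%, 5 at 50%, 5 with the replicate block, and 1 to 4 on leaving out each library. Between UUO and UIR, the 0 higher became 3 with no filter and 1 at 50% (0 to 1 on leaving out each library), and the 0 lower became 1 at 50% and 1 with 15% doublets. Members whose change differed between compartments went from 6 to 2 at 15%. Gpx4 was reversed in DT with free RNA subtracted (0.51 in UIR, 0.81 in UUO, from an estimate that is no measured share) and in Macro in UIR at Leiden resolution 2 (0.50), and the cause was not tested.

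With the replicate block 12 pairs were higher in UIR and 14 in UUO, and no call was lost. It gained Casp4 and Gpx4 in frTEC and Gpx4 and Acsl4 in Stroma of UIR, and Pycard in CD-I, Gpx4 in DT and Gpx4 in Endo of UUO. Same-numbered libraries correlated at 0.392 to 0.791 in LOH, 0.236 to 0.675 in Endo and -0.215 to 0.506 in Macro, and in each class 2 of 6 libraries correlated best with their own number. Libraries UIR and UUO deviated together and against UUO1 and UUO2 (down to -0.648), and UIR2 correlated with UUO1 at 0.603, 0.484 and 0.517 in LOH, Endo and Macro, above its own-number pair. Since not every pair in Macro was over 0.1, the number was not taken as a pairing. Leaving out a library made the permutation test of immune shares unable to reach 0.05. Depth limits the controls, where pools held as few as 20 cells in T/NK and 21 in Stroma. Control LOH pools held 42 to 62 cells, and a count of 0 over all 5 allows up to 1.53 CPM.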

Other observations

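Podocytes, outside the compartments described, held 20.8% of all Gsdmd UMIs in controls, at 27.8 ± 13 CPM (SD, n = 5). Their Gpx4 level was 1346 ± 105 CPM and their Acsl4 level 115 ± 31.5 CPM (n = 5).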
